A study of Rattus norvegicus with 16 samples.

Results

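Nefm, Mapt, Dpysl4 and Prx were followed as 4 genes chosen by name, out of 1096 genes named by the membranes' probes, each measured by 1 of the 1176 probes tested. The genes encode an axonal neurofilament subunit, the axonal protein tau, a protein of growing axons and a protein of myelinating Schwann cells. The question was whether such nerve and Schwann cell transcripts are lost or kept in muscle without its nerve. All rats were of the Brown-Norway strain and 6 months old, and the muscle was the EDL (extensor digitorum longus), which is made mainly of fast fibres and extends the toes. There were 8 arrays from control muscle and 8 from muscle denervated for 2 months. The labels give no genotype, drug, sham operation or method of denervation, and do not say whether the control muscle came from the same animals. Nefm is called Nef3 in older annotations. The probes are named RA1064 for Nefm, RA0233 for Mapt, RA0828 for Dpysl4 and RA1069 for Prx. No probe sequence was used here, so binding of transcripts from related genes was not assessed.

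Axons of motor neurons run into muscle inside Schwann cells. The cell bodies, where most neuronal transcripts lie, sit in the spinal cord, whereas Schwann cell nuclei lie in the muscle. After a nerve is cut the axon stump degenerates, and Schwann cells shed their myelin and take on a repair state. Neurofilaments are built from light (Nefl), medium (Nefm) and heavy (Nefh) subunits and set the calibre of axons. Tau, from Mapt, binds and stabilises microtubules. Dpysl4 (also Crmp3) is one of the collapsin response mediator proteins, which act in growth cone signalling. Periaxin, from Prx, links the outer face of myelin to the basal lamina. In a whole muscle, fewer cells of a type and less RNA per cell cannot be told apart.

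Values are in log units of an unstated base, as deposited, so no fold changes are given. The mean over probes lay between 8.19 and 8.31 on 15 arrays and was 6.63 on the array of control rat 6. The lowest value of an array was shared by 22 to 206 probes and is called its floor; a value at the floor gives no more than a ceiling for the true level. The first principal component of the residuals, with 20.8% of their variance, separated rats 1 to 4 from rats 5 to 8 in both groups. The labels name no batch, so values are also given within each set of 4 rats per group. Floors ran from 3.27 to 6.69 in control arrays, from 4.99 to 5.93 in denervated rats 1 to 4 and from 2.51 to 4.08 in denervated rats 5 to 8. Among skeletal muscle markers, Ckm, the muscle creatine kinase, stood at 13.01 ± 1.88 in control and 13.72 ± 0.71 in denervated muscle (SD, n = 8). Of the 9 muscle markers measured 3 rose and 1 fell at an adjusted p under 0.05, beside 5.44% of all probes higher and 0.85% lower. Ckm did not pass (0.70, adjusted p = 0.624). Nor did Cacna1s (-0.03, adjusted p = 0.976), Pgam2 (0.15, adjusted p = 0.924), Tpm1 (-0.59, adjusted p = 0.684) or Tpm2 (0.60, adjusted p = 0.518). Tpm1 was at the floor on 5 of 8 control and 4 of 8 denervated arrays. Mylk2, the kinase of muscle myosin light chain, fell by 1.87 (adjusted p = 4.18e-04), and its groups did not overlap. The myogenic factor Myog rose by 1.85 (adjusted p = 3.79e-04) and Casq2, a calcium store protein of slow and cardiac muscle, by 1.77 (adjusted p = 0.00126). The myogenic factor Myod1 rose by 1.33 (adjusted p = 0.0450), a call lost with array medians centred (1.12, adjusted p = 0.157).

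Of the 4 genes, Nefm rose and Dpysl4 fell in denervated muscle, while Mapt and Prx did not pass the test. Over all probes 6.29% were called, 5.44% higher and 0.85% lower, at limma's Benjamini-Hochberg adjusted p under 0.05 over the 1176 probes. None of the 4 genes passed by exact permutation, beside 67 of the 1176 probes. There Nefm had an adjusted p of 0.125 and Dpysl4 of 0.0976. In all 4 genes the values of the groups overlapped, against 1.28% of probes whose groups did not.

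**Figure D1:**
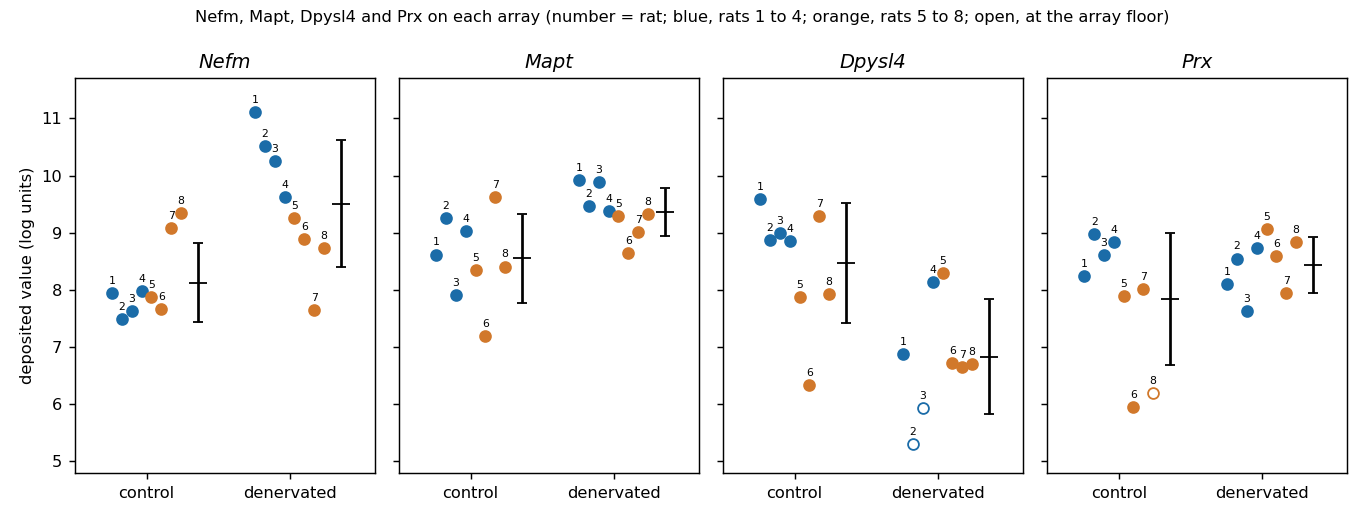
Deposited values in log units of Nefm, Mapt, Dpysl4 and Prx on the 16 arrays, with the rat number above each point, rats 1 to 4 in blue, rats 5 to 8 in orange and values at the floor open. Bars give the mean and SD of 8 arrays, and levels are not comparable between panels; in the Nefm panel denervated rats 1 to 4 lie above every control array, while denervated rats 5 to 8 lie among them.

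Nefm, the medium neurofilament subunit, stood in control rats 1 to 4 at 7.94, 7.50, 7.64 and 7.98. In control rats 5 to 8 it stood at 7.87, 7.67, 9.08 and 9.35. Denervated rats 1 to 4 had 11.12, 10.51, 10.26 and 9.62. These 4 arrays lay above all 8 control arrays. Denervated rats 5 to 8 had 9.26, 8.89, 7.65 and 8.74, all within the control range. The probe was above the floor on all 16 arrays. The mean rose from 8.13 ± 0.69 to 9.51 ± 1.11 (SD, n = 8), a difference of 1.38 (SE 0.42, 95% confidence interval 0.55 to 2.21, adjusted p = 0.0318). It ranked as number 52 of 1176 differences from the top.

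The call for Nefm depended on scaling and on single arrays. After centring of each array on its median the difference was 1.17 (adjusted p = 0.126), where 4.25% of probes were called, 2.98% higher and 1.28% lower. After quantile normalisation it was 0.85 (adjusted p = 0.296), where 5.27% were called, 2.98% higher and 2.3% lower. The call was lost without control rat 3 (adjusted p = 0.0608), control rat 5 (adjusted p = 0.0623) or control rat 6 (adjusted p = 0.0563). It was also lost without denervated rat 1 (adjusted p = 0.121), rat 2 (adjusted p = 0.0916), rat 3 (adjusted p = 0.0681) or rat 4 (adjusted p = 0.0594).

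In rats 1 to 4 Nefm rose from 7.76 ± 0.23 to 10.38 ± 0.62 (SD, n = 4), a difference of 2.61 (95% confidence interval 1.79 to 3.43, adjusted p = 1.82e-04). In rats 5 to 8 it stood at 8.49 ± 0.84 and 8.64 ± 0.69, a difference of 0.14 (95% confidence interval -0.93 to 1.22, adjusted p = 0.889). The effect in rats 5 to 8 minus that in rats 1 to 4 was -2.47 (95% confidence interval -3.82 to -1.13). This interaction did not pass over all probes (adjusted p = 0.171), where limma called 0 probes and 159 had an unadjusted p under 0.05. With array medians centred it was -3.05 (adjusted p = 0.0107), and Nefm was the only probe called among 1176, or 0.085%. After quantile normalisation it was -2.56 (adjusted p = 0.187). The sets of rats were picked with earlier results known, and what sets them apart was not tested.

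**Figure D2:**
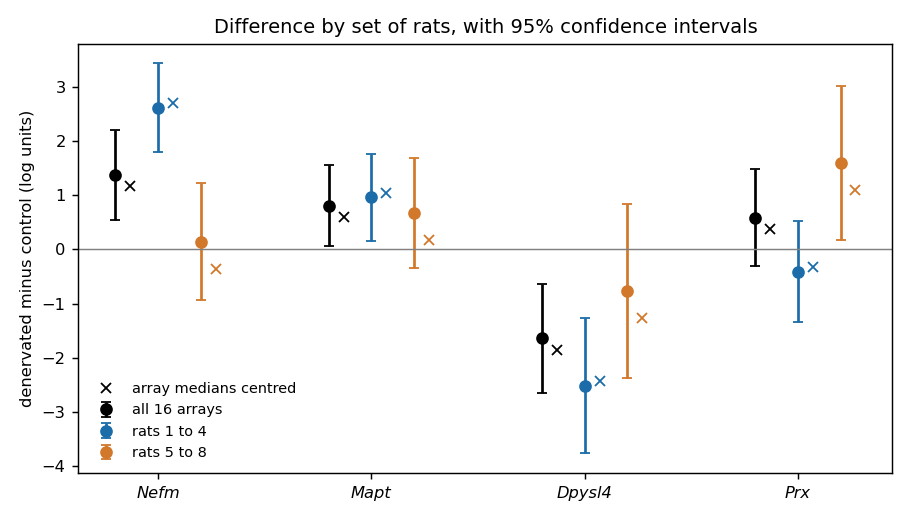
Denervated minus control differences in log units for the 4 genes over all 16 arrays (black), in rats 1 to 4 (blue) and in rats 5 to 8 (orange), with 95% confidence intervals from limma; crosses give the same difference after centring of array medians. Nefm differed by 2.61 in rats 1 to 4 and 0.14 in rats 5 to 8, and the Prx difference changed sign between the sets.

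The partners of Nefm in the neurofilament did not pass the test. Nefl, the light subunit, stood at 7.74 ± 1.23 in control and 7.87 ± 0.96 in denervated muscle, a difference of 0.12 (95% confidence interval -0.89 to 1.13, adjusted p = 0.938). In rats 1 to 4 it differed by -0.26. Nefh, the heavy subunit, stood at 7.82 ± 1.14 and 7.36 ± 0.76, a difference of -0.47 (95% confidence interval -1.47 to 0.54, adjusted p = 0.685). In rats 1 to 4, where Nefm was 2.61 higher, Nefh differed by -0.83. Prph, peripherin, an intermediate filament of peripheral neurons, differed by 0.33 (adjusted p = 0.846). Its value equalled the floor on 3 arrays of control and 2 of denervated muscle. The difference between Nefm and its partners was not itself tested.

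Mapt stood in control rats 1 to 4 at 8.62, 9.26, 7.91 and 9.03, and in rats 5 to 8 at 8.35, 7.20, 9.63 and 8.41. Denervated rats 1 to 4 had 9.92, 9.46, 9.89 and 9.38, and rats 5 to 8 had 9.29, 8.65, 9.01 and 9.33. All 8 denervated values lay above the control median of 8.52, and 2 lay above every control array. No array was at its floor. The means were 8.55 ± 0.77 and 9.37 ± 0.42 (SD, n = 8), a difference of 0.81 (SE 0.37, 95% confidence interval 0.07 to 1.55, adjusted p = 0.219). The unadjusted p in limma was 0.0322 and that of the exact permutation test 0.0183. Without the low array of control rat 6 the difference was 0.62. The difference was 0.96 within rats 1 to 4 and 0.67 within rats 5 to 8, with an interaction of -0.29 (95% confidence interval -1.58 to 1.01, adjusted p = 0.864). With array medians centred they were 1.04 and 0.17.

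Dpysl4 stood in control rats 1 to 4 at 9.59, 8.87, 8.99 and 8.86, and in rats 5 to 8 at 7.88, 6.34, 9.29 and 7.93. Denervated rats 1 to 4 had 6.88, 5.30, 5.93 and 8.14. Rats 5 to 8 had 8.30, 6.73, 6.65 and 6.71. The values of denervated rats 2 and 3 were at the floor, so the denervated mean is an upper bound. All 8 denervated arrays lay below the control median of 8.86, but the low array of control rat 6 lay below 6 of them. The mean fell from 8.47 ± 1.05 to 6.83 ± 1.01 (SD, n = 8), a difference of -1.64 (SE 0.50, 95% confidence interval -2.65 to -0.63, adjusted p = 0.0368).

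Dpysl4 ranked as number 12 of 1176 from the bottom, and its fall was larger relative to the whole array. It was -1.85 with array medians centred (adjusted p = 0.0113), -1.89 with quantile normalisation (adjusted p = 0.0172) and, on omission of control rat 6, -1.94 (adjusted p = 0.00868). With every value under the highest floor raised to that floor it was -1.41 (adjusted p = 0.0546). The call was lost without control rat 1 (adjusted p = 0.0840), rat 2 (adjusted p = 0.0564), rat 3 (adjusted p = 0.0776), rat 4 (adjusted p = 0.0540) or rat 7 (adjusted p = 0.0874). It was also lost without denervated rat 1 (adjusted p = 0.0601), rat 2 (adjusted p = 0.0958), rat 3 (adjusted p = 0.0681), rat 6 (adjusted p = 0.0653) or rat 8 (adjusted p = 0.0585).

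In rats 1 to 4 Dpysl4 went from 9.08 ± 0.34 to 6.56 ± 1.24, a difference of -2.52 (adjusted p = 0.0149). In rats 5 to 8 it went from 7.86 ± 1.20 to 7.10 ± 0.80, a difference of -0.76 (adjusted p = 0.603). The interaction of 1.75 (95% confidence interval -0.20 to 3.71) did not pass (adjusted p = 0.421). Crmp1, the other collapsin response mediator measured from the fixed lists, stood at 8.64 ± 0.77 and 8.74 ± 0.65, a difference of 0.10 (95% confidence interval -0.68 to 0.88, adjusted p = 0.933).

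**Figure D3:**
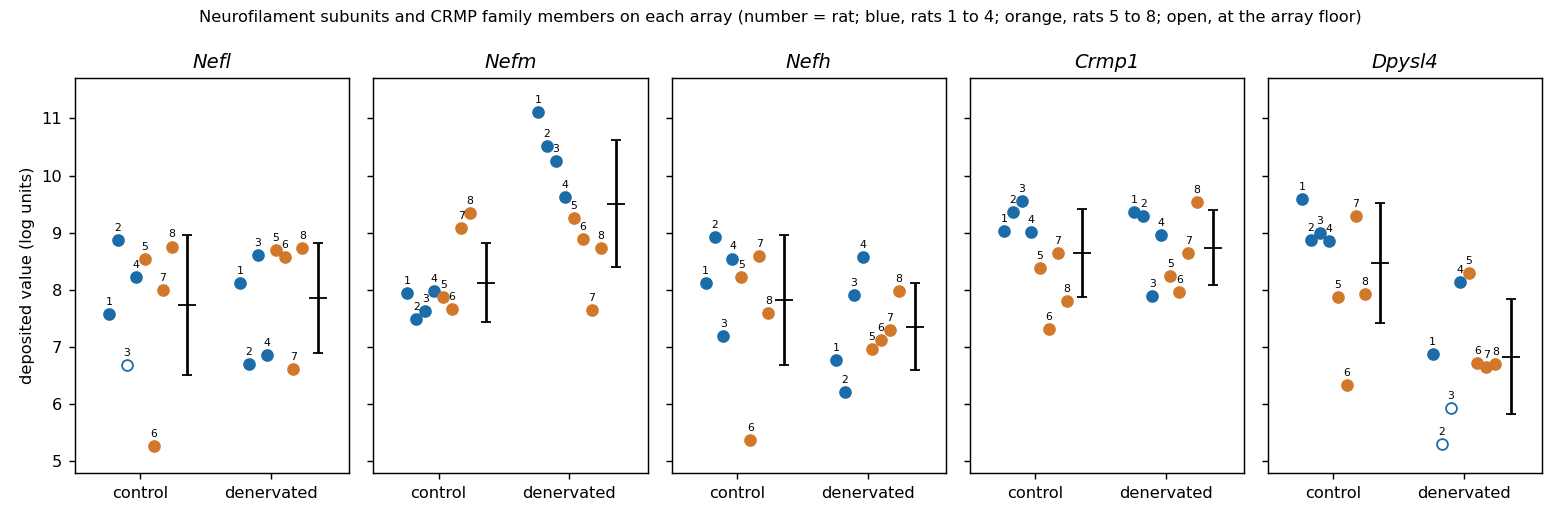
Deposited values in log units of the neurofilament subunits Nefl, Nefm and Nefh and of the collapsin response mediators Crmp1 and Dpysl4 on each array, marked by rat number and set, open where at the floor, with bars for the mean and SD of 8 arrays; levels are not comparable between panels. The denervated values of rats 1 to 4 are set apart from the values of control rats 1 to 4 for Nefm and Dpysl4, and overlap them for Nefl, Nefh and Crmp1.

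Prx stood in control rats 1 to 4 at 8.24, 8.98, 8.61 and 8.84, and in rats 5 to 8 at 7.89, 5.96, 8.01 and 6.20. Denervated rats 1 to 4 had 8.10, 8.55, 7.64 and 8.74, and rats 5 to 8 had 9.06, 8.59, 7.94 and 8.84. The low control values were those of rat 6, whose whole array was low, and of rat 8, which was at its floor. The periaxin probe was above the floor in all 8 muscles denervated for 2 months. Their floors were 4.99 to 5.93 in rats 1 to 4 and 2.51 to 4.08 in rats 5 to 8, below the 6.20 of control rat 8. A value above the floor therefore does not by itself show that the transcript was kept. The means were 7.84 ± 1.15 and 8.43 ± 0.49 (SD, n = 8), a difference of 0.59 (SE 0.45, 95% confidence interval -0.31 to 1.49, adjusted p = 0.507). Without control rat 6 it was 0.32 and without control rat 8 it was 0.36. The difference was -0.41 within rats 1 to 4 and 1.59 within rats 5 to 8, the set that holds both low control arrays, and the interaction of 2.01 (95% confidence interval 0.42 to 3.59) did not pass (adjusted p = 0.248).

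Within rats 1 to 4, 2 of the 4 genes passed in limma, against 2.55% of all probes (1.53% higher and 1.02% lower), and the groups did not overlap for 3 of them (Nefm, Mapt and Dpysl4), against 7.48% of probes. Within rats 5 to 8, 0 of the 4 passed in limma, where 11.8% of all probes did (11.1% higher and 0.68% lower), and 1 of the 4, Prx, had an unadjusted p under 0.05. The groups overlapped for all 4 genes in that set, whereas they did not for 20.1% of probes.

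Profiles over the 16 arrays were compared by rank after centring of each array on its median, as the mean number of places by which ranks differed. Nefm and Mapt differed by 3.38 places and Dpysl4 and Prx by 4.38, while Nefm and Dpysl4 differed by 6.38. The median over the 1003 other probes compared was 5.0 places for Nefm, Mapt and Prx and 5.38 for Dpysl4. The profiles nearest to Nefm were those of Adarb2, an RNA-editing enzyme family member, at 2.12 places, Tnnt2, the cardiac and embryonic troponin T, at 2.62 and Ncr1, a receptor of natural killer cells, at 2.75. Near ranks did not mean a like difference within each set. Tnnt2 differed by 5.55 within rats 1 to 4 and 5.13 within rats 5 to 8, where Nefm differed by 2.61 and 0.14. Nearest to Mapt were Thrsp, a regulator of lipid synthesis, at 1.88, Snap29, a membrane fusion protein, at 1.88 and Kcnn3, a calcium-activated potassium channel, at 2.00. Nearest to Dpysl4 were Cd55, a complement regulator, at 2.25, Acsm2 at 2.62 and Agt, angiotensinogen, at 2.88. Nearest to Prx were Ube2d2b at 2.25, Pdlim5, a protein of the Z-disc, at 2.38 and Slc3a2, an amino acid transporter subunit, at 2.62. None of these 12 nearest genes belonged to the nerve and myelin lists, which held 41 of the 1096 genes named by a probe. With so small a share, the count cannot show whether the 4 genes follow nerve genes.

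Other genes of axons, myelin and the nerve terminal were read from 4 lists, of which 41 genes were measured. Of the 41, 3 rose, 1 fell and 37 did not pass, beside 5.44% of all probes called higher and 0.85% lower. Their median difference was 0.21, beside 0.22 over all probes, and 29 of the 41 differences were positive, beside 749 of 1176. Among 17 further genes of the axonal and neuronal cytoskeleton, 1 rose, none fell and 14 of the differences were positive, with a median of 0.38. It was Sncg, gamma-synuclein, a protein of sensory and motor axons that is also made by fat cells. Sncg ranged from 5.78 to 9.37 in control muscle, with a median of 8.60, and from 9.31 to 10.97 in denervated muscle, with a median of 10.20. All but the lowest denervated array lay above every control array. It rose by 1.89 (SE 0.39, adjusted p = 8.72e-04) and kept its call with array medians centred (1.69, adjusted p = 0.00227), with quantile normalisation (1.53, adjusted p = 0.00105) and without each array in turn (highest adjusted p = 0.00355). The difference was 1.78 within rats 1 to 4 and 2.01 within rats 5 to 8. Scd, a desaturase and a marker of fat cells, rose by 2.97 (adjusted p = 3.24e-05), and its part in the rise of Sncg was not tested. Acly, the other fat cell marker measured, differed by 0.08 (adjusted p = 0.966).

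The next 3 of that list did not pass. Dync1i2, a dynein chain of axonal transport, differed by 1.09 (adjusted p = 0.0688), Map1a, a microtubule-associated protein, by 1.02 (adjusted p = 0.0710) and Cdk5r1, the activator of a kinase of tau and neurofilaments, by 0.87 (adjusted p = 0.198). Map1a passed by exact permutation (adjusted p = 0.0320).

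Of 10 myelin and Schwann cell genes, 1 rose and none fell, with a median of 0.09. It was Ncam1, an adhesion molecule of non-myelinating Schwann cells that denervated muscle fibres also make, which rose by 1.96 (adjusted p = 3.43e-04). Its rise passed within rats 5 to 8 (2.92, adjusted p = 6.96e-07) but not within rats 1 to 4 (1.01, adjusted p = 0.298), and the interaction of 1.91 (95% confidence interval 0.67 to 3.15) did not pass (adjusted p = 0.171). The myelin enzyme Cnp differed by 0.55 (adjusted p = 0.618), Gfap, a filament protein of non-myelinating Schwann cells, by -0.75 (adjusted p = 0.560) and Egr2, the transcription factor that drives myelination, by -0.61 (adjusted p = 0.684). Gfap stood at the floor on 7 of 8 control and 5 of 8 denervated muscles and Egr2 on 4 and 3, so many of their values are only upper bounds. With a common floor Gfap differed by -0.03 (adjusted p = 0.873). Sox10, a transcription factor that defines Schwann cells, stood at 6.36 ± 0.98 and 6.33 ± 1.89, a difference of -0.04 (95% confidence interval -1.35 to 1.28, adjusted p = 0.986). S100b, a Schwann cell calcium-binding protein, differed by 0.41 (95% confidence interval -0.66 to 1.48, adjusted p = 0.748), and none of its values equalled the floor. The mean over the 10 genes ranged from 4.99 to 7.51 in control muscle, or from 6.66 without rat 6, and from 6.63 to 7.51 in denervated muscle.

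Of 5 genes of the node of Ranvier and of axon-glia contact, 1 rose and none fell, with a median of 0.44. Nrcam, an adhesion molecule of the node, ranged from 7.80 to 9.07 in control muscle (median 8.73) and from 10.17 to 10.64 in denervated muscle (median 10.51), so that the groups did not overlap. It rose by 1.96 (SE 0.33, adjusted p = 3.24e-05), by 1.93 in rats 1 to 4 and 2.00 in rats 5 to 8. Scn8a, the sodium channel of the node, differed by 0.96 (adjusted p = 0.124), Cntn2, an axonal contactin, by 0.44 (adjusted p = 0.542) and Cntnap1, the contactin-associated protein beside the node, by -0.51 (adjusted p = 0.719).

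Of 9 genes of the presynaptic terminal, none rose and 1 fell, with a median of 0.20. Syngr2, a synaptogyrin found outside neurons too, fell by 1.56 (SE 0.49, adjusted p = 0.0438). Syngr2 kept its call with array medians centred (-1.77, adjusted p = 0.0113) and with quantile normalisation (-1.94, adjusted p = 0.00986). It did not pass by exact permutation (adjusted p = 0.101) or with a common floor (-1.15, adjusted p = 0.0941). Its denervated values in rats 1 to 4 were 6.31, 5.30, 5.95 and 5.89, of which those of rats 2 and 4 were at the floor, all below the lowest control value of 7.67, and in rats 5 to 8 they were 7.48, 8.06, 8.38 and 8.67. The difference was -2.50 (adjusted p = 0.0132) within rats 1 to 4 and -0.62 within rats 5 to 8 (adjusted p = 0.519), and the interaction of 1.88 did not pass (adjusted p = 0.326). Its call was lost without any 1 of 8 arrays, namely control rats 3, 5, 7 and 8 and denervated rats 1 to 4 (adjusted p = 0.0834 to 0.116). Rph3a, an effector of vesicle release, differed by 1.16 (adjusted p = 0.0906), Cplx1, a complexin, by 0.74 (adjusted p = 0.310) and Napa, a membrane fusion factor, by 0.63 (adjusted p = 0.357).

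**Figure D4:**
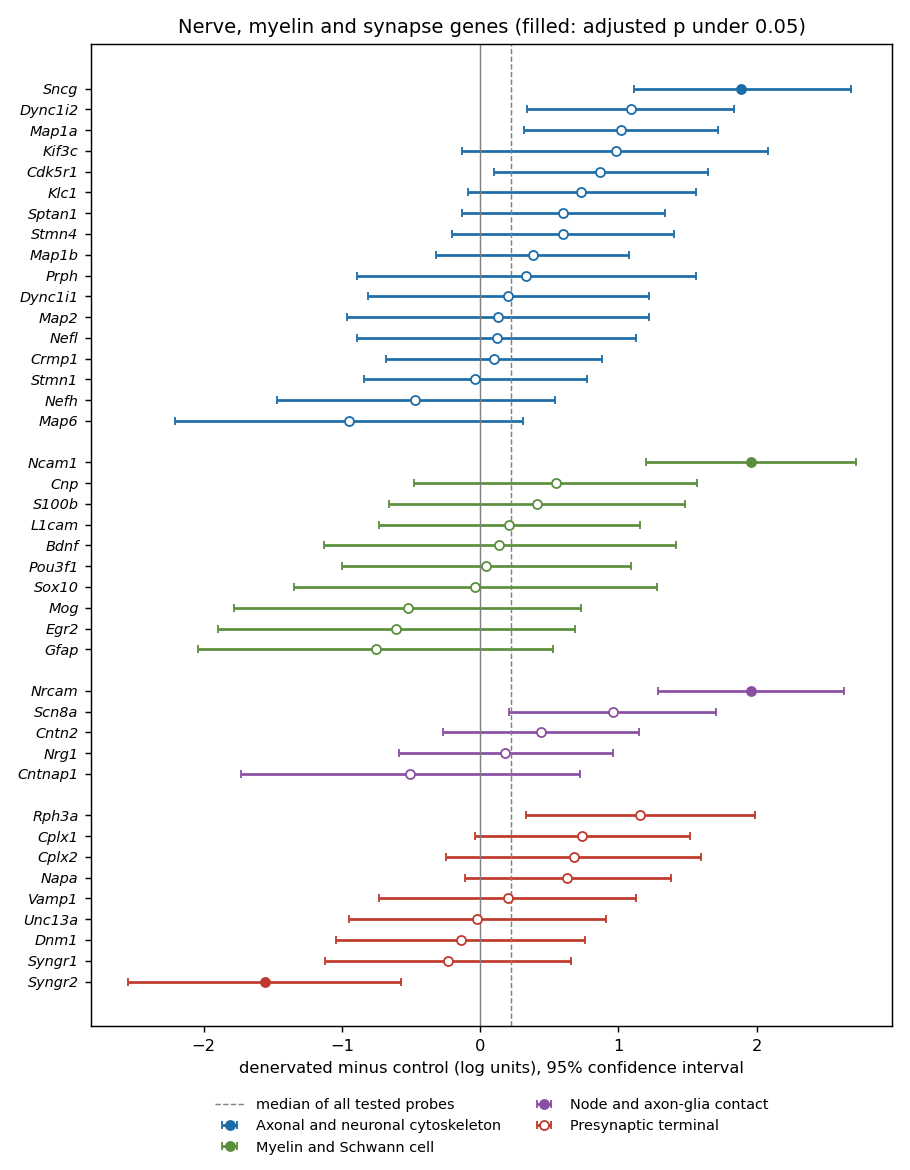
Denervated minus control differences in log units, with 95% confidence intervals, for the 41 measured genes of the 4 nerve lists; filled points passed limma at an adjusted p under 0.05 and the dashed line is the median of all tested probes, 0.22. Sncg, Ncam1 and Nrcam lie apart on the higher side and Syngr2 on the lower side, while most intervals hold 0.

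Markers of some other cell types in the same muscles also moved. The 2 markers of endothelium and smooth muscle did not pass, Myh11 (0.45, adjusted p = 0.809) and Tagln (0.55, adjusted p = 0.437). Myh11 was at the floor on 5 of 8 control and 2 of 8 denervated arrays. Of 5 fibroblast and matrix markers 3 rose and none fell, with a median of 1.40, beside 5.44% of all probes called higher and a median of 0.22. Among those that rose, Dcn lost its call with array medians centred (1.19, adjusted p = 0.0782) and with quantile normalisation (0.39, adjusted p = 0.180). The mean over the 5 ranged from 7.96 to 10.46 in control muscle, or from 9.19 without rat 6, and from 10.72 to 11.61 in denervated muscle. Of 4 macrophage and leukocyte markers 1 rose and none fell. It was Mmp12, a macrophage elastase, at 1.16 (adjusted p = 0.0368, and 0.0846 with array medians centred). C1qb, a complement chain, differed by 0.95 (adjusted p = 0.138) and Cd48, a leukocyte surface protein, by 1.24 (adjusted p = 0.0688). Cxcl1, a chemokine, was at the floor on 4 of 8 control and 7 of 8 denervated arrays, so most of its denervated values are only upper bounds. It differed by -1.92 (adjusted p = 0.0550) and passed by exact permutation (adjusted p = 0.0471). With a common floor Cxcl1 differed by -0.15 (adjusted p = 0.557). The mean over the 4, of which only Cxcl1 had a negative difference, ranged from 7.35 to 9.22 in control muscle, or from 7.72 without rat 6. In denervated muscle it ranged from 7.90 to 9.15. The part of these cell types in the values of the 4 genes was not tested.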

How the data were processed

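Per the labels, the authors hybridised labelled cDNA to nylon membranes (Clontech Atlas), scanned them with a phosphorimager, read spots in Array Vision and scaled arrays by linear regression. The deposited score lies on a log-like scale. Its base, any background step and what sets the floor are not stated in the labels. Of 1185 probes, 9 reference probes on another scale were left out. The filter (above 0 on at least 8 arrays) removed none of the 1176. A platform table gave 1 gene to 1106 probes, several to 2 and none to 68; 1099 gene IDs matched RefSeq (GRCr8), used for names only. The probe with the highest mean stood for a gene with several probes.

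The 8 arrays of each group entered a two-sided limma fit (version 3.58.1, R 4.3.3; lmFit, eBayes with a trend) over all tested probes, with no further scaling. Intervals are limma's. The exact two-sided permutation test used all 12870 ways to choose 8 of 16 arrays. The procedure was tested on simulated data. The number of arrays limits the precision. The 4 genes, the lists and the sets of rats were chosen with earlier results of these data known. List genes were named if called or among the next 3 by adjusted p. Nefl, Nefh, Prph, Crmp1, Sox10 and S100b were named in addition, after their values were seen. So were the marker genes Ckm, Mylk2, Myog, Casq2, Myod1, Cacna1s, Pgam2, Tpm1, Tpm2, Mmp12, C1qb, Cd48, Cxcl1, Dcn, Myh11, Tagln, Scd and Acly. The 3 nearest profiles came from probes with 1 gene, at the floor on at most 4 arrays. Alternatives were scaling, filters, a common floor, blocks, robust variance, array weights, permutation and leaving out each array. Rat numbers were not taken as pairs, since the labels do not say that a number marks 1 animal. Correlations of same-numbered arrays' deviations ran from 0.059 to 0.193 and were above 0.1 in 7 of 8 pairs. The medians were 0.073 for other numbers of the same set and -0.111 across sets. These values do not settle whether numbers mark pairs. Figures were drawn with matplotlib 3.10.9.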

Additional observations from a re-analysis of the deposited data

Results flagged for a closer look

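The array of control rat 6 stood apart from the other 7 control arrays, by a gap beyond the critical value of Dixon's test for 8 arrays, in its mean over all probes, 6.63. It also did so in the means over the axonal cytoskeleton (6.66), myelin and Schwann cell (4.99), node (6.79) and presynaptic (7.14) lists. Chance alone gives such a gap in about 1 in 20 groups, and these 5 means share the array. The values of Nefm, Mapt, Dpysl4 and Prx gave no such gap in either group.

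The effect of denervation on Nefm differed between rats 5 to 8 and rats 1 to 4 by -3.05 log units with array medians centred (limma interaction, adjusted p = 0.0107); as deposited the interaction did not pass.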

How the results depend on the processing

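Dpysl4 was lower in every fit run and Mapt higher, and Mapt never passed. Fits that changed only the filter, a block, robust variance or the test left each difference as it was. In those fits the sign could not turn. Nefm was higher in every fit but 1. It lost its call after centring (1.17), quantile normalisation (0.85), with a common floor (1.38, adjusted p = 0.0781), by exact permutation (1.38, adjusted p = 0.125), in rats 5 to 8 (0.14) and with the sets as a block after centring (1.17, adjusted p = 0.0504). In rats 5 to 8 after centring its sign turned (-0.36, adjusted p = 0.654). Dpysl4 lost its call with a common floor (-1.41), by exact permutation (-1.64), in rats 5 to 8 (-0.76) and there after centring (-1.26, adjusted p = 0.252). The sign of Prx turned in rats 1 to 4 (-0.41, and -0.33 after centring). Leaving out each array gave 1.15 to 1.64 for Nefm, 0.62 to 0.97 for Mapt, -1.94 to -1.42 for Dpysl4 and 0.32 to 0.75 for Prx. The interaction of Nefm passed only after centring (-3.05). The cause of these changes was not tested; the fits by set hold 4 arrays per group.

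Of all probes 74 were called, 64 higher and 10 lower (86.5% higher). Centring gave 35 and 15 (70.0%) and quantile normalisation 35 and 27 (56.5%), and they moved the median difference from 0.22 to 0.01 and -0.01. The count was 113 with the rat number as a replicate block, 131 with the set as a block (117 after centring), 30 in rats 1 to 4 (31 after centring) and 139 in rats 5 to 8. It ranged from 43 to 98 without 1 array. Of the 41 nerve genes 4 were called, 7 with either the replicate block or the set block, and 3 to 6 without 1 array. With the replicate block Nefm and Dpysl4 kept their calls (adjusted p = 0.00676 and 0.0163), and 5 of 16 arrays correlated best with their own number. Fits with centring inside sets and interactions after scaling were added after the data were seen. Of the list medians recomputed, 125 moved by less than the spread between arrays and 3 by more. The 125 include settings, such as the blocks, robust variance and permutation, whose medians equal those of the main fit by design. The count is therefore no measure of stability. The floor limits what low values of Dpysl4 and Prx can show.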
